A study of Homo sapiens with 12 samples.

Results

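The nuclear genome encodes most protein subunits of the mitochondrial respiratory chain, and their mRNAs were measured in MDA-MB-231 breast cancer cells given ARF1 siRNA or scramble siRNA. Members were chosen by gene symbol alone: symbols starting with NDUFA, NDUFB, NDUFC, NDUFS, NDUFV, UQCR, COX4, COX5, COX6, COX7, COX8 or ATP5, together with SDHA, SDHC, SDHD, CYC1 and CYCS. The rule took 84 genes with 112 probes, out of 47311 probes with values. It left out 15 probes of NDUFAF assembly factors, 3 of pseudogenes and 1 antisense probe. Of the 84 genes, 78 passed the detection filter and were tested, among 12048 genes named and tested in all. They were 35 of 36 in complex I, 3 of 3 in complex II, 9 of 9 in complex III, the single cytochrome c gene, 12 of 17 in complex IV and 18 of 18 in complex V. SDHB, NDUFA4 and UQCRFS1 were not analysed here.

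Complex I passes electrons from NADH, and complex II passes electrons from succinate, to ubiquinone. Complex III passes them on to cytochrome c, and complex IV to oxygen. Complexes I, III and IV pump protons, and complex V, the ATP synthase, uses the proton gradient to make ATP. Complex II is encoded wholly in the nucleus, while the other complexes combine nuclear subunits with a few encoded in mitochondrial DNA. In most tissues the nuclear subunits are expressed together as housekeeping genes, and a few subunits of complex IV have isoforms of restricted use. COX7B2 is such an isoform, known from testis and related to the common subunit COX7B.

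MDA-MB-231 is an established triple-negative breast cancer line with mesenchymal traits. Cells were transfected with 100 nM siRNA using Oligofectamine and profiled on 12 Illumina HumanHT-12 V4.0 arrays. Cells of 3 arrays received scramble siRNA, and 9 received an ARF1 siRNA that the labels describe as a commercial pool. ARF1 encodes a small GTPase that recruits coats to Golgi membranes, and the study was designed to ask what its loss does in these cells. By source name the 9 arrays form sets of 3 with the names ARF-1, ARF-2, ARF-4, and no label says what the numbers stand for. The labels do not say whether the arrays of a group came from separate cultures, so the p-values reflect just the scatter among these arrays, part or all of which may be technical. The number of arrays limits the precision.

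Mean raw signal lay between 303 and 518 per array, and between 39.1% and 42.8% of probes were detected, which here means a detection p-value below 0.05 against negative control beads. The brightest ARF1 probe did not show the labelled knockdown: its difference from scramble was 0.08 ± 0.08 (log2, SE) in ARF-1, 0.21 ± 0.08 in ARF-2 and 0.12 ± 0.08 in ARF-4, with limma adjusted p between 0.0758 and 0.554. A dimmer ARF1 probe gave 0.30, 0.15 and 0.03, and the dimmest, detected on 8 arrays, gave -0.28, -0.23 and -0.03, also without a call (adjusted p 0.0814 to 0.949). Groups are therefore named as the libraries labelled so, and directions below are between labels. All 6 markers listed for mesenchymal triple-negative cells were detected on every array. Of 6 luminal markers, ESR1, PGR and CDH1 were detected on none, FOXA1 on 1, GATA3 on 4 and ERBB2 on all 12. CD14 was detected on all 12, and the other leukocyte markers with a probe, PTPRC and CD3E, on none. PECAM1 was detected on all 12, and the other endothelial markers, CDH5 and VWF, on none. Of 8 germ cell markers of testis with a probe, 0 were detected on all arrays and 5 on none; the 2 detected on 3 or more arrays were TNP1 and LDHC, found on 3 and 5. None of the 13 subunits encoded in mitochondrial DNA had a named probe.

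COX7B2 fell in each set, SDHA rose in each set by its brighter probe, and 59 of the 78 tested subunits passed the test in none of the 3 sets. The share of all genes that passed in none was not counted, and the shares by set follow. In ARF-1, 6 members rose and 6 fell at a limma adjusted p below 0.05, where 15.2% of all 12048 genes rose and 15.3% fell. In ARF-2, 7 rose and 4 fell, against 14.7% and 14.1% of all genes, and in ARF-4, 7 rose and 1 fell, against 4.99% and 4.8%. The balance of higher and lower calls moved with the processing: without background correction 17 rose and 8 fell in ARF-1, while ARF-2 had 18 and 6, without ARF-1 replicate 1 the ARF-1 counts were 1 and 5, and with median scaling the ARF-2 counts were 5 and 6. Of all called probes, the share that rose was 49.5% and 49.1% without background correction, 49.9% without ARF-1 replicate 1 and 46.3% with median scaling. In the main fit, the median difference over all 78 was 0.04 (log2) in ARF-1, 0.07 in ARF-2 and 0.08 in ARF-4. COX7B2 was the single member whose 95% interval lay wholly beyond a 1.5-fold change. Cytochrome c (CYCS) and NDUFA6 fell in ARF-1 and ARF-2, and UQCR11 fell in ARF-1, while their ARF-4 differences were -0.03, -0.04 and 0.29.

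Promoters are shown for COX7B2, its common relative COX7B and SDHA, since COX7B2 and SDHA were the members called in all 3 sets. The stretches are from RefSeq, build GRCh38.p14, from 250 bases before to 50 bases after each gene's start, read on the gene's strand. COX7B2 is at chr4:46909196-46909495 (minus strand), COX7B at chrX:77899218-77899517 (plus strand) and SDHA at chr5:218070-218369 (plus strand). Capitals mark matches to the core CGCANGCG of NRF1, an activator of many respiratory genes.
COX7B2: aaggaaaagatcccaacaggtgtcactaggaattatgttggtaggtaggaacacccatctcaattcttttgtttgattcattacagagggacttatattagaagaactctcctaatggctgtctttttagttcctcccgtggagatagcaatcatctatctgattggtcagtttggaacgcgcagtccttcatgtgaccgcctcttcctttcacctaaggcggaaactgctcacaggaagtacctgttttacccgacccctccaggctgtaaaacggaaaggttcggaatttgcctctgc
COX7B: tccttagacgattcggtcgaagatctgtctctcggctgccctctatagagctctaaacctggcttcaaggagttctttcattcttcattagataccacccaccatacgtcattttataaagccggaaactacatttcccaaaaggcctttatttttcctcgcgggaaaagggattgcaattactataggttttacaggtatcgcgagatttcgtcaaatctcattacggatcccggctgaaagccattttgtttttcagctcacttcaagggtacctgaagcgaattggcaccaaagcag
SDHA: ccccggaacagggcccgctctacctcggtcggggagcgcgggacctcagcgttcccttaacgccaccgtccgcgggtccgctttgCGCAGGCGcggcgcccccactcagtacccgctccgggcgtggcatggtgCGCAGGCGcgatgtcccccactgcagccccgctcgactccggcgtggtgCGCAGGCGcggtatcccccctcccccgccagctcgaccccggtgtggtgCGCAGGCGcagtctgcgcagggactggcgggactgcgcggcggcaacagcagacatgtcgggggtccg
The SDHA promoter held 4 matches to CGCANGCG on either strand, and the promoters of COX7B2 and COX7B held 0. COX7B2 had 8 CpG dinucleotides and a GC content of 45.3%, COX7B had 14 CpG and 44.0%, SDHA had 41 CpG and 74.7%, and the median over the 69 members with a promoter entry was 23 CpG and 61.0%.

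Among these 69 members, CGCANGCG was found in 34.8% of promoters, against 14.3% of 15842 protein-coding promoters of the same length. The ETS core CCGGAAG, of the kind bound by GABPA, was found in 27.5% of members against 14.2%, and the YY1 core AAGATGGC in 14.5% against 3.91%. Motifs were searched on both strands, and matches of different motifs were counted separately even where they overlapped. By complex, CGCANGCG was found in 31.2% of 32 promoters of complex I, 2 of 2 of complex II, 3 of 6 of complex III, 14.3% of 14 of complex IV and 7 of 14 of complex V. A match is a description of letters and not of binding, and the members were not compared by motif for their response.

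In complex IV, COX7B2 was the subunit that stood apart. Its normalized signal was 7.81, 7.65 and 7.59 (log2) on the scramble arrays. It was 6.28, 6.17 and 6.31 in ARF-1, while ARF-2 arrays gave 6.57, 6.29 and 6.31 and ARF-4 arrays 5.83, 6.52 and 6.19. The lowest scramble array was above the highest of the 9 ARF1 siRNA arrays, and the 3 sets overlapped each other. The difference from scramble was -1.43 ± 0.15 in ARF-1, -1.29 ± 0.15 in ARF-2 and -1.50 ± 0.15 in ARF-4, or 2.7-, 2.45- and 2.83-fold lower, with limma adjusted p of 4.42e-05, 9.44e-05 and 0.000113. Over the 9 arrays together it was -1.41 ± 0.13 (adjusted p = 2.45e-05). A difference among the sets was not shown (F-test adjusted p = 0.589); ARF-4 minus ARF-2 was -0.21 with a 95% interval of -0.54 to 0.12.

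COX7B2 has a single probe, detected on all 12 arrays. Its raw signals were low, between 260.9 and 377.2 on scramble arrays and between 131.8 and 189.5 on ARF1 siRNA arrays. Without background correction the differences were -0.85, -0.78 and -0.87, so the fold depends on how background is removed, while all alternatives kept the call. The common isoform COX7B, named here after its values were seen, differed from scramble by 0.01 ± 0.10, 0.21 ± 0.10 and 0.04 ± 0.10 in the 3 sets and passed no test. COX7B did pass in ARF-2 under 2 of 22 alternatives (limma adjusted p down to 0.0424). Its 95% interval over the 9 arrays was -0.13 to 0.30. The plot of COX7B2, COX7B, SDHA and CYCS by array shows these values.

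**Figure D1:**
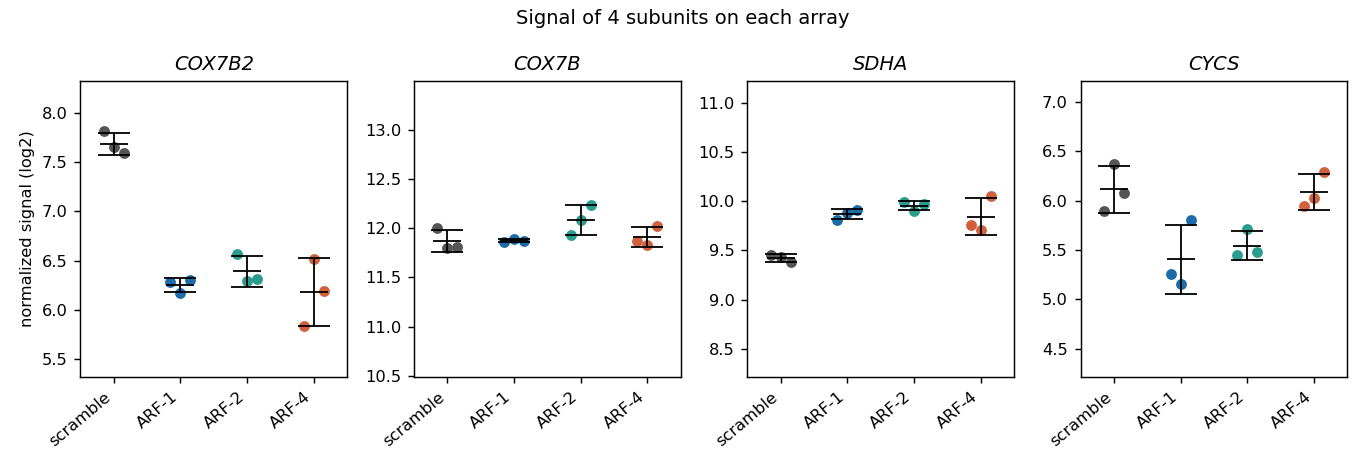
Normalized signal (log2) of COX7B2, COX7B, SDHA and CYCS on each array by group; points are arrays, bars are the mean and SD of 3 arrays, and each panel spans 3 log2 units with its own origin. COX7B2 lay between 7.59 and 7.81 on scramble arrays and between 5.83 and 6.57 on the other 9.

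The other isoforms of restricted use gave no comparison. COX4I2 (lung), COX6A2 and COX7A1 (heart and muscle) and COX8C (testis) were detected on 0 of 12 arrays, and of the 2 probes of COX6B2 (testis), 1 was detected on 0 arrays and the other on 1. Their raw signals stayed between 80.9 and 128.4. NDUFS6, an accessory subunit of complex I, was also detected on 0 arrays, by 1 probe.

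Of the 11 other tested subunits of complex IV, differences ranged from -0.12 to 0.38 in ARF-1, from -0.08 to 0.33 in ARF-2 and from -0.04 to 0.27 in ARF-4. COX8A, the common isoform of subunit 8, lay at 13.21, 13.07 and 13.10 on scramble arrays and between 13.31 and 13.51 on the 9 others, without overlap. It rose by 0.28 ± 0.09 in ARF-1 (adjusted p = 0.0313) and by 0.30 ± 0.09 in ARF-2 (adjusted p = 0.0242), and was 0.27 ± 0.09 higher in ARF-4 (adjusted p = 0.0784). COX6C rose in ARF-1 by 0.38 ± 0.11 (adjusted p = 0.0275) and differed by 0.33 ± 0.11 in ARF-2 (adjusted p = 0.0513). The COX8A calls were lost without scramble replicate 2 or 3, without ARF-1 replicate 1 or 3 for ARF-1, and without ARF-2 replicate 2 or 3 for ARF-2 (adjusted p 0.0524 to 0.11). That of COX6C was lost without scramble replicate 1 or 3 or any ARF-1 array (0.056 to 0.108).

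COX4I1, COX5A and COX5B, which surround the catalytic core, passed no test in any set; the largest of their differences was 0.24 ± 0.09 for COX4I1 in ARF-1 (adjusted p = 0.0651). COX4I1 did pass under 4 of 10 other processing alternatives in ARF-1 (adjusted p 0.00752 to 0.0337) and under 2 in ARF-2 (0.0333 and 0.0419). COX7A2L, which helps to join complexes III and IV, differed by 0.16, 0.03 and 0.08.

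In complex II, SDHA, the flavoprotein that oxidises succinate, lay at 9.45, 9.44 and 9.38 on scramble arrays. It was 9.81, 9.88 and 9.91 in ARF-1, while ARF-2 arrays gave 9.99, 9.90 and 9.97 and ARF-4 arrays 9.76, 9.71 and 10.06. No ARF1 siRNA array overlapped the scramble arrays. SDHA rose by 0.45 ± 0.10 (ARF-1), 0.53 ± 0.10 (ARF-2) and 0.42 ± 0.10 (ARF-4) at adjusted p of 0.00601, 0.00229 and 0.0239, which is 1.36-, 1.44- and 1.33-fold. The ARF-4 call was lost without any 1 scramble array or without ARF-4 replicate 3 (adjusted p 0.0583 to 0.0782), with median scaling (0.0532), and with only the 6 arrays compared (0.0862).

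SDHA has near-identical pseudogene copies, whose transcripts could add to its signal. A second SDHA probe gave 0.44 ± 0.17 in ARF-1, 0.20 ± 0.17 in ARF-2 and 0.18 ± 0.17 in ARF-4, with adjusted p of 0.0808, 0.437 and 0.592. When the probes were averaged, the ARF-4 call was lost (adjusted p = 0.111). The membrane anchors SDHC and SDHD, which carry the electrons to ubiquinone, gave smaller differences. SDHC passed no test, with differences of 0.18, 0.03 and 0.10. SDHD rose in ARF-2 by 0.30 ± 0.10 (adjusted p = 0.0481), a call kept in 1 of 12 fits that left out 1 array (adjusted p up to 0.167), and differed by 0.23 in ARF-1 and 0.00 in ARF-4.

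**Figure D2:**
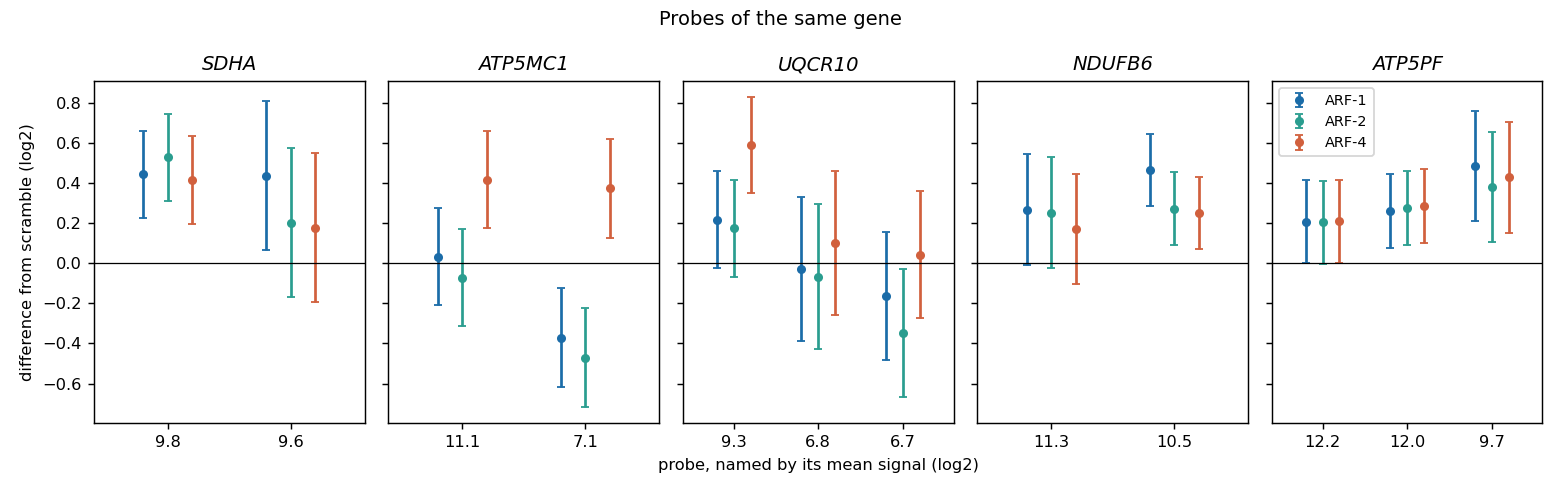
Difference from scramble (log2, with 95% intervals, 3 arrays a group) for each tested probe of SDHA, ATP5MC1, UQCR10, NDUFB6 and ATP5PF, by set; probes are named on the horizontal axis by their mean log2 signal. The ATP5MC1 probes share a positive ARF-4 value, 0.42 and 0.37, and part in ARF-2, at -0.07 and -0.47.

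CYCS encodes cytochrome c, which shuttles electrons from complex III to complex IV and also triggers the apoptosome when released. Its signal was 5.90, 6.37 and 6.08 on scramble arrays, 5.26, 5.15 and 5.80 in ARF-1, while ARF-2 arrays gave 5.45, 5.71 and 5.48 and ARF-4 arrays 5.95, 6.03 and 6.29. ARF-1 and ARF-2 lay below every scramble array, and ARF-4 lay among them. CYCS fell by 0.71 ± 0.18 in ARF-1 (adjusted p = 0.0103) and by 0.57 ± 0.18 in ARF-2 (adjusted p = 0.0325), and its ARF-4 difference was -0.03 ± 0.18 (adjusted p = 0.95). By the F-test the 3 sets were unlike (adjusted p = 0.0308). The gene has many processed pseudogenes, and its probe was dim, with raw signals between 104.8 and 190.1. The ARF-2 call was lost without scramble replicate 2 or 3 or ARF-2 replicate 1 or 3 (adjusted p 0.0655 to 0.125), and differences without background correction were -0.27 and -0.23 in ARF-1 and ARF-2.

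In complex I, 5 of 35 members were called in ARF-1, 4 in ARF-2 and 3 in ARF-4, with medians of 0.03, -0.00 and 0.08. These are 14.3%, 11.4% and 8.57% of complex I, beside 30.6%, 28.9% and 9.79% of all genes. In ARF-1, 2 of them rose and 3 fell, in ARF-2, 2 rose and 2 fell, and in ARF-4, 3 rose. NDUFA6, an accessory subunit, lay at 8.53, 8.54 and 8.43 on scramble arrays, at 7.92, 8.06 and 8.02 in ARF-1, while ARF-2 arrays gave 8.14, 8.16 and 8.16 and ARF-4 arrays 8.42, 8.50 and 8.44. All ARF-1 and ARF-2 arrays were below the scramble arrays, and the ARF-4 arrays overlapped them. NDUFA6 fell by 0.50 ± 0.08 in ARF-1 (adjusted p = 0.000861) and by 0.34 ± 0.08 in ARF-2 (adjusted p = 0.00869), and differed by -0.04 ± 0.08 in ARF-4.

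NDUFB10, an accessory subunit of the membrane arm, fell by 0.41 ± 0.10 in ARF-1 (adjusted p = 0.00836) and by 0.34 ± 0.10 in ARF-2 (adjusted p = 0.0214), and differed by -0.17 ± 0.10 in ARF-4. Its ARF-2 call was lost without scramble replicate 2 or 3 or ARF-2 replicate 2 or 3 (adjusted p 0.0564 to 0.0734). NDUFS3, a core subunit, fell in ARF-1 by 0.28 ± 0.09 (adjusted p = 0.0348), a call lost without scramble replicate 1 or 2 or any ARF-1 array (0.0649 to 0.129). It lay at 11.12, 11.26 and 11.07 on scramble arrays, between 10.84 and 10.89 in ARF-1, from 10.83 upward but under the lowest scramble array in ARF-2, and between 11.17 and 11.27 in ARF-4, so that ARF-1 and ARF-2 were below the scramble range and ARF-4 within or just above it.

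The other core subunits measured, NDUFS1, NDUFS7, NDUFS8, NDUFV1 and NDUFV2, carry the flavin and iron-sulfur clusters of complex I. None passed the test in a set, and their differences lay between -0.14 and 0.25. NDUFS7 did pass in ARF-1 under 1 of 22 alternatives (limma adjusted p = 0.04). NDUFV3, an accessory subunit at the electron entry site, was dim and detected on 11 arrays. It was 5.92, 6.02 and 5.55 on scramble arrays, 5.74, 5.56 and 5.60 in ARF-1, while ARF-2 arrays gave 4.98, 5.72 and 5.45 and ARF-4 arrays 6.35, 6.46 and 6.37. The ARF-4 arrays were the highest of the 12, and the other groups overlapped. It passed the test against scramble in no set, and the sets differed (F-test adjusted p = 0.00276), with ARF-4 above ARF-2 by 1.01 ± 0.17 (adjusted p = 0.00144). Against scramble, NDUFV3 did pass as higher in ARF-4 under 7 of 21 alternatives (limma adjusted p down to 0.0177). In ARF-2 it passed as lower under 2 of 21 (down to 0.0206).

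The calls toward higher values in complex I were of accessory subunits. NDUFA8 rose by 0.34 ± 0.10 in ARF-2 (adjusted p = 0.0274) and by 0.50 ± 0.10 in ARF-4 (adjusted p = 0.00947), with 0.23 ± 0.10 in ARF-1. Its arrays lay between 11.15 and 11.29 in scramble and between 11.31 and 11.81 in the other 9, without overlap. The ARF-2 call was lost without scramble replicate 1 or 3 or ARF-2 replicate 1 or 2 (adjusted p 0.0717 to 0.0975). NDUFA12, NDUFB5 and NDUFB2 were named after their values were seen. NDUFA12 rose by 0.25 ± 0.08 in ARF-1 (adjusted p = 0.0386) and by 0.30 ± 0.08 in ARF-4 (adjusted p = 0.0413). NDUFB5 rose by 0.32 ± 0.09 in ARF-1 (adjusted p = 0.0264) and 0.36 ± 0.09 in ARF-2 (adjusted p = 0.0154). NDUFB2 rose by 0.38 ± 0.10 in ARF-4 (adjusted p = 0.0384). These last calls were fragile: NDUFA12 kept 6 of 12 in ARF-1 and 2 of 12 in ARF-4 when 1 array was left out (adjusted p up to 0.119), NDUFB5 9 and 10 of 12 (up to 0.104) and NDUFB2 6 of 12 (up to 0.129).

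NDUFB6 has a second, dimmer probe that rose by 0.47 ± 0.08 in ARF-1 (adjusted p = 0.00141) and by 0.27 ± 0.08 in ARF-2 (adjusted p = 0.0302), where its brighter probe gave 0.27 ± 0.13 and 0.25 ± 0.13 without a call. It too was named after its values were seen.

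In complex III, UQCR11, a small accessory subunit, had the smallest adjusted p for a difference among the sets. It was 7.30, 7.25 and 7.28 on scramble arrays, 6.78, 6.83 and 6.76 in ARF-1, while ARF-2 arrays gave 6.97, 6.94 and 7.07 and ARF-4 arrays 7.65, 7.76 and 7.29. ARF-1 and ARF-2 lay below the scramble arrays, and ARF-4 above or among them. UQCR11 fell in ARF-1 by 0.49 ± 0.11 (adjusted p = 0.00693) and differed by -0.29 ± 0.11 in ARF-2 (adjusted p = 0.0836). Its ARF-4 difference was 0.29 ± 0.11 (adjusted p = 0.142). The F-test among sets gave an adjusted p of 0.00108, and ARF-4 exceeded ARF-1 by 0.77 ± 0.11 (adjusted p = 0.000551).

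UQCR10, another accessory subunit, rose in ARF-4 by 0.59 ± 0.11 (adjusted p = 0.00669), from between 8.95 and 9.22 on scramble arrays to between 9.60 and 9.74. Its values of 0.22 and 0.18 in ARF-1 and ARF-2 passed no test. The 2 dimmer probes of UQCR10 gave 0.10 and 0.04 in ARF-4, and the call was lost when the 3 probes were averaged (adjusted p = 0.102). CYC1, the cytochrome that hands electrons to cytochrome c, passed no test against scramble, with -0.04, -0.13 and 0.20 in the 3 sets. The core proteins UQCRC1 and UQCRC2 gave between 0.13 and 0.26 and passed no test. UQCRC1 did pass under 3 of 22 alternatives in ARF-1 and 2 of 22 in ARF-4 (limma adjusted p down to 0.0233 and 0.0327). UQCRH and its intronless copy UQCRHL are nearly alike in sequence, so their signals may be shared; UQCRH differed from scramble by at most 0.10 and UQCRHL, named after its values were seen, by at most 0.13 in size.

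In complex V, 1 of 18 members was called in ARF-1, 2 in ARF-2 and 2 in ARF-4, all higher, which is 5.56%, 11.1% and 11.1%, while 15.2%, 14.7% and 4.99% of all genes rose. ATP5F1B, the catalytic beta subunit, was 13.87, 13.80 and 13.79 on scramble arrays and between 13.95 and 14.13 on the 9 others, without overlap. It rose by 0.25 ± 0.08 in ARF-2 (adjusted p = 0.0367), with differences of 0.20 ± 0.08 in ARF-1 and 0.27 ± 0.08 in ARF-4 at adjusted p of 0.0883 and 0.056. ATP5ME, of the membrane part, rose by 0.28 ± 0.08 in ARF-1 (adjusted p = 0.023) and 0.26 ± 0.08 in ARF-2 (adjusted p = 0.03), and differed by 0.27 ± 0.08 in ARF-4 (adjusted p = 0.0587). The ATP5F1B call, and that of ATP5ME in ARF-2, were each lost without any 1 scramble or ARF-2 array (adjusted p 0.054 to 0.0992). That of ATP5ME in ARF-1 was lost without scramble replicate 3 or any ARF-1 array (0.0552 to 0.0797). With probes averaged neither ATP5ME call held (0.0961 and 0.0934), and the ARF-2 call was also lost with median scaling (0.115) and cyclic loess (0.0565).

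ATP5MC1, ATP5MC2 and ATP5MC3 encode the same c subunit of the rotor ring and differ in their import sequences. ATP5MC2 rose in ARF-4 by 0.46 ± 0.10 (adjusted p = 0.0142), a call lost without scramble replicate 3 or ARF-4 replicate 2 (0.0542 to 0.0582) and when its probes were averaged (0.15), and differed by 0.21 and 0.25 in the other sets. ATP5MC1 lay at no more than 11.11 on scramble arrays and at 11.28, 11.58 and 11.53 in ARF-4, with ARF-1 and ARF-2 overlapping scramble. It rose in ARF-4 by 0.42 ± 0.11 (adjusted p = 0.0381), a call kept in 6 of 12 fits without 1 array (adjusted p up to 0.122). Its dimmer probe fell by 0.37 ± 0.11 in ARF-1 (adjusted p = 0.0308) and by 0.47 ± 0.11 in ARF-2 (adjusted p = 0.00994), where the brighter probe gave 0.03 and -0.07. ATP5MC3 gave 0.05, 0.00 and 0.09.

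ATP5PF, a peripheral stalk subunit named after its values were seen, has 3 tested probes. The brightest gave 0.21, 0.20 and 0.21 and passed no test, and the 2 others rose in ARF-1 and ARF-2 by between 0.26 and 0.49 (adjusted p 0.0138 to 0.0448). ATP5F1A, ATP5F1C and ATP5PO, of the head and its stalk, passed no test, with differences between -0.03 and 0.25. ATP5F1A did pass in ARF-4 under 4 of 22 alternatives (limma adjusted p down to 0.0096).

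**Figure D3:**
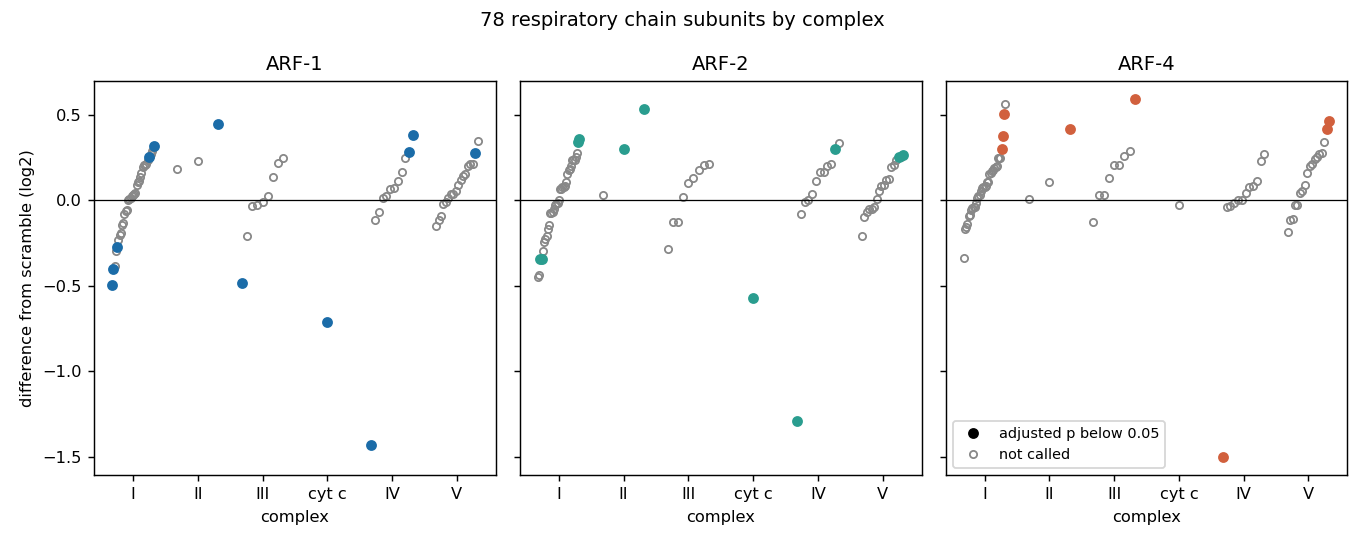
Difference from scramble (log2) of each of the 78 tested subunits by complex, with 1 panel per set, ordered by value within a complex; filled points had a limma adjusted p below 0.05. The lowest point of complex IV in each panel is COX7B2, at -1.43, -1.29 and -1.50.

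Counted in both directions, 15.4%, 14.1% and 10.3% of members were called in the ARF-1, ARF-2 and ARF-4 sets, beside 30.6%, 28.9% and 9.79% of all genes. Over the 9 arrays against scramble, NDUFA12, NDUFA8, SDHA, COX8A and ATP5ME rose and COX7B2 fell, 5 and 1 of 78, against 6.5% and 5.99% of all genes. Of these 6 calls, that of COX7B2 alone held with the set as a random block, where the others had an adjusted p of 0.0671 to 0.225. The calls of NDUFA12, NDUFA8, COX8A and ATP5ME were also lost without any 1 scramble array (adjusted p up to 0.176).

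The members' lower share in ARF-1 and ARF-2 depended on the variance model and on the background correction. With a prior variance that follows the signal, 32.1%, 30.8% and 23.1% of members were called, against 35.3%, 33.7% and 15.2% of all genes. Without background correction the members' shares were 32.1%, 30.8% and 21.8%, against 36.2%, 34.6% and 16.3%. Members were bright, with a median signal of 11.46 (log2) against 7.28 over all genes. Their median SE was 0.099, against 0.124. The 95% interval lay within a 1.5-fold change either way for 68, 73 and 69 of 78 members, or 87.2%, 93.6% and 88.5%, against 57.7%, 58.6% and 72.3% of all genes. Their part in the difference in shares was not tested.

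**Figure D4:**
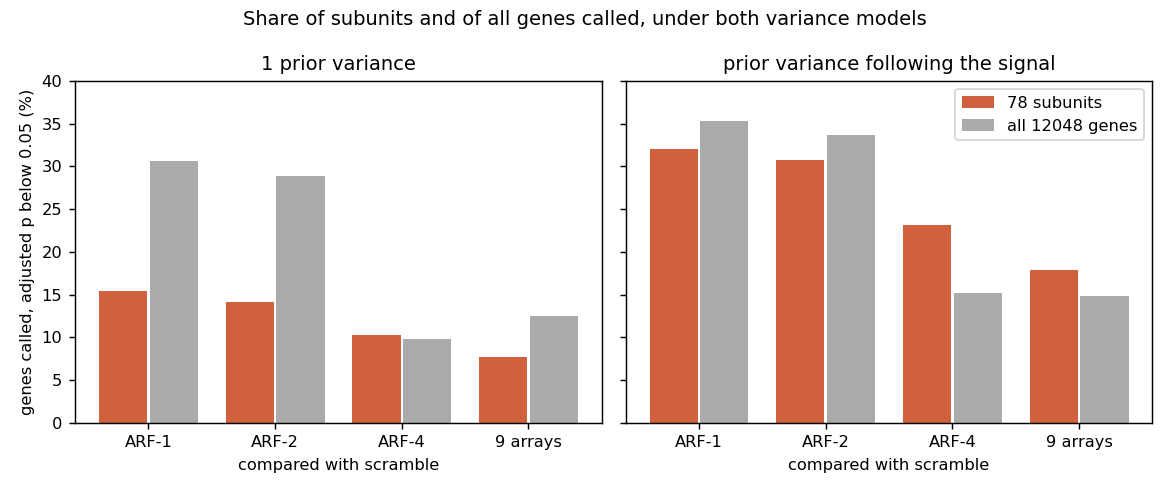
Percentage of the 78 subunits and of all 12048 genes called at a limma adjusted p below 0.05 in each comparison with scramble, with 1 prior variance for all probes (left) and with a prior variance that follows the signal (right). In ARF-1 the subunits stood at 15.4% on the left and 32.1% on the right, beside 30.6% and 35.3% of all genes.

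On the single arrays, the median deviation of the 78 members from their scramble means was between -0.01 and 0.00 (log2) on scramble arrays and between 0.05 and 0.10 on the 9 ARF1 siRNA arrays. The scramble arrays lie close to these means by construction, since the means come from the same 3 arrays. An error in the means would move the 9 others together, so these ranges describe the arrays and test nothing. For complex V it was between -0.01 and 0.01 on scramble arrays and between 0.04 and 0.23 on the others, and for complex II, with 3 genes, between -0.04 and 0.01 and between 0.04 and 0.42. For complex I the ranges overlapped, at -0.03 to 0.03 and -0.04 to 0.10, as they did for complex III, at -0.03 to 0.01 and -0.05 to 0.21, and complex IV, at -0.04 to 0.02 and 0.01 to 0.11. With median scaling the member medians were 0.06, 0.02 and 0.07 in the 3 sets, beside 0.02, 0.02 and 0.03 over all probes tested.

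The 3 sets were compared with each other, since they share the scramble arrays in the comparisons above. Between ARF-2 and ARF-1, 0 of 78 members were called, and over all genes 0.0581% rose and 0.0166% fell. ARF-4 exceeded ARF-1 in 7 members and was lower in 0, against 12% and 11.9% of all genes, and exceeded ARF-2 in 9 and was lower in 0, against 11.2% and 12.3%. Without background correction, ARF-4 was higher in 14 and lower in 3 against ARF-1, and 11 and 2 against ARF-2. With the prior variance that follows the signal, these counts were 14 and 1, and 12 and 2. Counted in both directions, the uncorrected values called 21.8% and 16.7% of members, beside 30% and 29.7% of all genes. The prior that follows the signal called 19.2% and 17.9%, beside 28.8% and 28.8%. By the F-test the sets differed for 8 members, 10.3% against 24.1% of all genes, and the 4 groups for 16 members, 20.5% against 37.4%. In all 8, ARF-4 had the highest mean of the 3 sets. The 8 were NDUFA6, NDUFS3 and NDUFV3 of complex I, CYC1, UQCR10 and UQCR11 of complex III, CYCS, and ATP5MC1 of complex V, and the number fell to between 3 and 7 when 1 array was left out. None belonged to complex II or IV, and whether the complexes differ in this was not tested. The F-test share of all genes was not computed for the fits without 1 array.

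**Figure D5:**
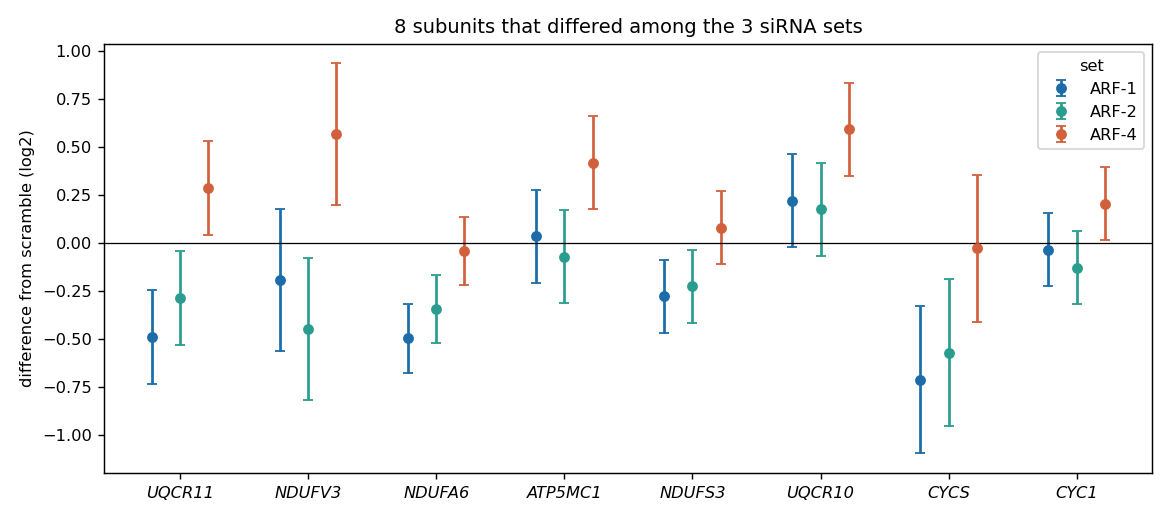
Difference from scramble (log2, with 95% intervals, 3 arrays a group) in each set for the 8 subunits that differed among the sets by the F-test. ARF-4 is the highest of the 3 in each, as for UQCR11 at 0.29, against -0.49 in ARF-1 and -0.29 in ARF-2.

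Lists of related genes were followed beside the subunits. Of 18 tested assembly factors of complex I, 2 rose and 2 fell in ARF-1, while ARF-2 had 2 and 3 and ARF-4 had 3 and 0, with medians of -0.10, 0.01 and 0.08. Of all genes, 15.2% rose and 15.3% fell in ARF-1, while the shares were 14.7% and 14.1% for ARF-2 and 4.99% and 4.8% for ARF-4. COA1, an assembly factor of complexes I and IV, lay between 9.95 and 10.09 on scramble arrays and rose by 1.12 ± 0.09 (ARF-1), 0.97 ± 0.09 (ARF-2) and 0.68 ± 0.09 (ARF-4) at adjusted p of 5.29e-06, 1.52e-05 and 0.000621. The ARF-4 call of COA1 was lost when its probes were averaged (adjusted p = 0.1). NDUFAF4 rose in ARF-4 by 0.56 ± 0.11 (adjusted p = 0.00813) and differed by -0.25 and -0.19 in the other sets.

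Of 35 tested assembly factors of complexes II to V, 5 rose and 5 fell in ARF-1, while ARF-2 had 4 and 4 and ARF-4 had 5 and 0, with medians of -0.06, 0.02 and 0.10, beside the same shares of all genes (15.2% and 15.3%, 14.7% and 14.1%, 4.99% and 4.8%). SDHAF4, which protects and loads the flavinated SDHA subunit, was 5.80, 5.51 and 6.09 on scramble arrays. It was 7.29, 6.83 and 7.47 in ARF-1, while ARF-2 arrays gave 7.32, 6.95 and 7.07 and ARF-4 arrays 6.32, 6.35 and 6.39, each array above the scramble arrays. It rose by 1.40 ± 0.17 in ARF-1 (adjusted p = 0.000133) and 1.31 ± 0.17 in ARF-2 (adjusted p = 0.000219), and was 0.55 ± 0.17 higher in ARF-4 (adjusted p = 0.0709). Without background correction the SDHAF4 differences were 0.72, 0.66 and 0.24, and those of COX15 and COA7, given next, were also smaller by over 1.5 times. COX15, which makes the heme of complex IV, rose by 0.56 ± 0.13 in ARF-1 (adjusted p = 0.0056) and 0.74 ± 0.13 in ARF-2 (adjusted p = 0.0011). COA7, a complex IV assembly factor, fell by 0.56 ± 0.12 in ARF-1 (adjusted p = 0.0057) and 0.57 ± 0.12 in ARF-2 (adjusted p = 0.00565), and rose by 0.70 ± 0.12 in ARF-4 (adjusted p = 0.00472).

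Of 22 tested carriers, channels and quinone genes, 4 rose and 1 fell in ARF-1, while ARF-2 had 5 and 1 and ARF-4 had 2 and 0, with medians of -0.11, 0.07 and 0.08. All genes rose and fell in shares of 15.2% and 15.3%, 14.7% and 14.1%, and 4.99% and 4.8% in these sets. PDSS1 and PDSS2 form the enzyme that makes the tail of ubiquinone, and they moved apart. PDSS1 fell by 1.00 ± 0.12 in ARF-1 (adjusted p = 0.000104) and 0.93 ± 0.12 in ARF-2 (adjusted p = 0.000174), with -0.25 in ARF-4. PDSS2 rose by 0.90 ± 0.09, 0.78 ± 0.09 and 0.62 ± 0.09 in the 3 sets (adjusted p 3.05e-05 to 0.00136).

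Of 13 tested genes of supercomplexes and cristae, 4 rose and 2 fell in ARF-1, while ARF-2 had 3 and 1 and ARF-4 had 2 and 0, with medians of 0.09, 0.03 and 0.13 (all genes 15.2% and 15.3%, 14.7% and 14.1%, 4.99% and 4.8%). HIGD2A, a supercomplex factor, rose by 0.55, 0.38 and 0.48 (SE 0.09, adjusted p 0.000612 to 0.00671). The prohibitin PHB1 fell by 0.66 ± 0.09 in ARF-1 (adjusted p = 0.000268) and 0.67 ± 0.09 in ARF-2 (adjusted p = 0.000271), and differed by 0.01 in ARF-4. Of 15 tested genes of the tricarboxylic acid cycle, which supplies NADH and succinate, 3 rose and 2 fell in ARF-1, while ARF-2 had 2 and 1 and ARF-4 had 1 and 0, with medians of 0.04, 0.01 and 0.03, against the same shares of all genes. IDH3A fell by 0.70 (ARF-1) and 0.72 (ARF-2) (adjusted p = 0.000686 and 0.000639), and SUCLG2 rose by 0.67 and 0.83 (adjusted p = 0.000818 and 0.000225). For all genes the median difference was 0.00 in each set, and these genes were named from their lists after their values were seen.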

How the data were processed

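Bead intensities and detection p-values of 12 arrays were deposited as a BeadStudio 2.3.47 export, per the submitters' processing notes, with 47323 probes listed and 12 without values. The authors' value table was found to hold the same intensities after quantile normalization with no background correction (largest log2 difference 6.06e-07). The genome build is not given in the sources used here. The intensities were background corrected with limma's neqc (limma 3.58.1, R 4.3.3, offset 16), quantile normalized and put on the log2 scale. Probes detected (p-value below 0.05) on 3 or more arrays entered the tests, which left 22195. The brightest of these stands for its gene. Symbols were updated by Entrez ID for 30074 of 30121 annotated probes.

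The 3 set comparisons were contrasts of 4 group means in lmFit and eBayes. The 9 ARF1 siRNA arrays were compared with scramble in a fit of 2 condition means. P-values were adjusted by Benjamini-Hochberg over all 22195 probes, and calls used an adjusted p below 0.05. Errors after ± are SE of the fitted difference, with n = 3 arrays a group. The script was tested on simulated data. The text names COX7B2, isoforms of restricted use, core or catalytic subunits and up to 5 members per complex with the smallest 4-group F-test p. Other genes were chosen after their values were seen. The members, lists and tests were chosen with earlier results of these data known. Promoters are from RefSeq (GRCh38.p14), matched by symbol for 69 of 84 members. Alternatives covered background, normalization, probe filter, probe choice, variance prior, blocks and leaving out each array.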

Additional observations from a re-analysis of the deposited data

Results flagged for a closer look

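Signal differed among the ARF-1, ARF-2 and ARF-4 arrays for 8 of 78 subunits (limma F-test over the 3 sets), where 24.1% of all genes passed. In complex III, UQCR11 had an adjusted p of 0.00108, UQCR10 of 0.0305 and CYC1 of 0.0395. In complex I, NDUFV3 had 0.00276, NDUFA6 had 0.00483 and NDUFS3 had 0.0212. CYCS had 0.0308 and ATP5MC1 of complex V had 0.0161. UQCR11, NDUFV3 and NDUFA6 passed without each of the 12 arrays in turn, with adjusted p up to 0.0254. ATP5MC1 and NDUFS3 passed in 10 of these 12 fits, CYCS in 7, UQCR10 in 6 and CYC1 in 2, with adjusted p up to 0.079, 0.077, 0.132, 0.115 and 0.11. A dimmer probe of ATP5MC1 also differed among the sets (adjusted p = 0.000476), while the 2 dimmer probes of UQCR10 did not pass (0.728 and 0.172).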

How the results depend on the processing

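No called difference reversed its direction under any alternative, while differences near 0 that passed no test did change sign, as for ATP5MC1 in ARF-1 (-0.17 to 0.10), UQCRB in ARF-2 (-0.21 to 0.05) and COX5B in ARF-4 (-0.05 to 0.08). The cause of the changes below was not tested. Of the 31 member calls in the 3 set comparisons, 12 held without each of the 12 arrays in turn. Of these, 11 also held under every other alternative that tested them. The CYCS call in ARF-1 was among the 11 and had no test under the stricter detection filter. The main fit called 12 members in ARF-1, 11 in ARF-2, 8 in ARF-4 and 6 over the 9 arrays, with 8 differing among the sets and 16 among the 4 groups. Without background correction these became 25, 24, 17, 15, 15 and 33, with 17 for ARF-4 against ARF-1 in place of 7. With the trended prior they were 25, 24, 18, 14, 16 and 32, with 15 for ARF-4 against ARF-1 and 14 for ARF-4 against ARF-2 in place of 9. Over the 9 arrays, the uncorrected values and the trended prior called 19.2% and 17.9% of members, beside 16.6% and 14.8% of all genes. For ARF-4 and the 9 arrays, an offset of 50 gave 14 and 13, detection below 0.01 on all arrays gave 13 and 13 (12 for ARF-4 against ARF-1), and median scaling gave 5 and 3. The offset shares were 17.9% and 16.7%, beside 14.3% and 15.9% of all genes. With the stricter detection they were 18.3% and 18.3%, beside 20% and 20.2% of the 13125 probes tested. For ARF-4 against ARF-1 this filter called 16.9% of members and 36.2% of probes. Median scaling gave shares of 6.41% and 3.85%, beside 9.02% and 12.6%. Over the 9 arrays, cyclic loess gave 3, the mean of the 3 sets 15 and the set as a random block 1. These were 3.85%, 19.2% and 1.28% of members, beside 13.3%, 28% and 2.83% of all genes. With only the 6 arrays compared, 7, 6 and 4 members were called in the respective sets. These were 8.97%, 7.69% and 5.13%, beside 28.2%, 24.5% and 5.69% of all genes. Leaving out 1 array gave 6 to 12 in ARF-1, 6 to 11 in ARF-2, 4 to 8 in ARF-4, 2 to 7 over the 9 arrays, 3 to 7 among the sets, 10 to 15 among the groups, 4 to 8 for ARF-4 against ARF-1 and 4 to 9 for ARF-4 against ARF-2. In ARF-1 that was 7.69% to 15.4% of members, beside 24.4% to 30.5% of all genes. In ARF-2 it was 7.69% to 14.1% beside 22.6% to 28.6%, and in ARF-4 5.13% to 10.3% beside 5.83% to 9.52%. Over the 9 arrays, 2.56% to 8.97% stood beside 4.31% to 15.7%. Of all genes, 18.8% to 23.6% were called for ARF-4 against ARF-1 and 18.4% to 23% for ARF-4 against ARF-2. With 1 array left out, COX7B2 lay between -1.48 and -1.37, -1.38 and -1.23, -1.67 and -1.33, and, over the 9 arrays, -1.46 and -1.35. Replicate numbers paired the arrays weakly at most: deviations of 18 same-numbered pairs correlated at -0.022 to 0.037, and of 36 other pairs at -0.032 to 0.021. Among the ARF1 siRNA sets, pairs of replicates 1 and pairs of replicates 3 all correlated positively. Pairs of a replicate 1 with a replicate 3 of another set all correlated negatively. The replicate block gave 5 members in ARF-4 and 2 over the 9 arrays. These were 6.41% and 2.56%, beside 8.67% and 9.01% of all genes. The beadchip as a block was not run, since the files used here name none. The stricter detection filter tested 71 members. CYCS, NDUFV3, NDUFS1 and the assembly factor SDHAF4 were not tested under it. Dim probes, such as those of COX7B2, CYCS and NDUFV3, have folds that depend on the background correction. Without it, called differences of UQCR11, COX15, COA7, PDSS2, IDH3A, GABPA and TWNK also shrank by over 1.5 times and kept their calls. With probes averaged, COA1 gave 0.71 in ARF-1 and 0.60 in ARF-2.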

Other observations

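Of 16 tested regulators of mitochondrial gene expression, 2 rose and 5 fell in ARF-1, while ARF-2 had 2 and 5 and ARF-4 had 1 and 1, with medians of -0.27, -0.27 and 0.07 (log2). Of all genes, 15.2% rose and 15.3% fell in ARF-1, while the shares were 14.7% and 14.1% for ARF-2 and 4.99% and 4.8% for ARF-4. The genes named here were chosen after their values were seen. The 2 that rose in ARF-1 and ARF-2 were TFB1M and PPARGC1A. TFB1M kept both calls under all 22 alternatives, at 0.72 to 1.13 in ARF-1 and 0.57 to 1.03 in ARF-2. PPARGC1A kept its ARF-2 call under all 21 alternatives that tested it, and lost its ARF-1 call under 8. PPRC1 fell under all 22 alternatives, by 0.53 to 0.69 in ARF-1 and by 0.60 to 0.77 in ARF-2. GABPA, a subunit of an ETS factor that activates respiratory genes, was 7.05, 7.16 and 7.05 on scramble arrays and between 6.46 and 6.83 on the 9 others, without overlap. It fell by 0.37 ± 0.12 in ARF-1, 0.40 ± 0.12 in ARF-2 and 0.51 ± 0.12 in ARF-4 (limma adjusted p 0.0176 to 0.0344). Without scramble replicate 2 none of these 3 calls held, and others were lost without scramble replicate 1 or 3, ARF-1 replicate 1 or 3, ARF-2 replicate 3 or ARF-4 replicate 3 (adjusted p 0.0561 to 0.128). TFAM, which packages mitochondrial DNA and starts its transcription, fell by 0.25 ± 0.08 in ARF-2 (adjusted p = 0.0459) and rose by 0.34 ± 0.08 in ARF-4 (adjusted p = 0.0247), calls kept in 1 and 7 of 12 fits without 1 array (up to 0.128). TWNK, the mitochondrial helicase, fell by 0.51 ± 0.11 (ARF-1) and 0.58 ± 0.11 (ARF-2), and its ARF-4 difference was 0.38 ± 0.11 (adjusted p = 0.0532).

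The 5 genes on either side of COX7B2 in the RefSeq order were also read. GABRG1, GABRA2, GABRA4, GABRB1 and CORIN were detected on 0 arrays. None of the 5 tested neighbours passed the test in the lower direction. YIPF7, dim and detected on 3 arrays, differed by -0.15, -0.31 and -0.09, and ATP10D, also detected on 3, by 0.08, 0.01 and 0.05. GNPDA2 rose by 0.53 ± 0.09 in ARF-1 (adjusted p = 0.000958) and 0.34 ± 0.09 in ARF-2 (adjusted p = 0.0159), and COMMD8 rose by 0.35 ± 0.10 in ARF-1 (adjusted p = 0.0202). Leaving out 1 array kept the ARF-2 call of GNPDA2 in 9 of 12 fits and that of COMMD8 in 8 (up to 0.0784). These were also chosen after their values were seen. GUF1 differed by 0.04, 0.12 and 0.26 and passed no test.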
